A study of Homo sapiens with 18 samples.

Results

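The TNF response of a line carrying a mutant of the NF-κB inhibitor IκBα was compared with the response of its wild-type counterpart, gene by gene, on raw read counts. The quantity tested was an interaction: the log2 fold change with TNF in the M3 line minus the log2 fold change with TNF in the WT line. Of the 61552 genes in the count table, 19038 passed a filter on low counts and were tested, and 60 differed between the lines at an adjusted p of at most 0.05 (edgeR quasi-likelihood test, Benjamini-Hochberg). The comparison rests on 12 of the 18 libraries of the study: WT untreated, WT with TNF, M3 untreated and M3 with TNF, with 3 libraries in each group.

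All cells were HCT116, a human colorectal carcinoma line of epithelial origin, with a knock-in at IκBα, and were grown in DMEM with serum. WT carried the wild-type protein, and M3 carried a triple mutant whose histidine 84 and glutamates 85 and 86 were changed to alanine. Treated cells received human TNFα at 0.1 µg/mL for 40 min. A further knock-in line, N108, mutated at residue 108, was grown and treated the same way, and its 6 libraries gave a further TNF response. They entered the model that set the spread and the low-count filter, but no mean of N108 enters the interaction of M3 with WT. The series concerns mutants that part the NF-κB function of IκBα from a role in intestinal stemness. The labels name the genotype and no clone, so an effect of the mutation and one of the particular line or clone cannot be told apart. They do not say whether the 3 replicates were separate cultures, so the p-values speak only of the scatter among the libraries at hand, which may be technical.

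As background, TNF binding to its receptor TNFR1 assembles a signalling complex that activates the kinase IKK. IKK phosphorylates IκBα, which is then degraded, and the NF-κB dimers it held in the cytoplasm enter the nucleus and start transcription of a first wave of genes. That wave includes chemokines, adhesion molecules and the pathway's own brakes, among them NFKBIA, which encodes IκBα, and TNFAIP3, which encodes the ubiquitin-editing protein A20. The MAP kinase branch of the same receptor activates AP-1 factors such as JUN. These counts were taken within that first wave, and a TNF response is the fold change over the untreated state of the same line, so the untreated level enters every response below.

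The genes that differed fell into 4 classes by their TNF response in each line. Genes called higher with TNF in both lines, and more so in M3, numbered 16. Another 35 fell with TNF in WT and were not called in M3. In 6 genes the rise seen in WT was smaller or not called in M3, and 3 genes belonged to none of these. In all, the response was higher in M3 for 54 genes (0.284% of the genes tested) and lower for 6 (0.0315%), together 0.315%. At an unadjusted p under 0.05 there were 1052 and 641 genes. The median interaction over all genes tested was -0.02 on the log2 scale, with 8562 genes above 0 and 10475 below. In the scatter of the responses of both lines, these 16 genes lie above the line of equal response, and the 6 with a negative interaction lie below it.

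**Figure D1:**
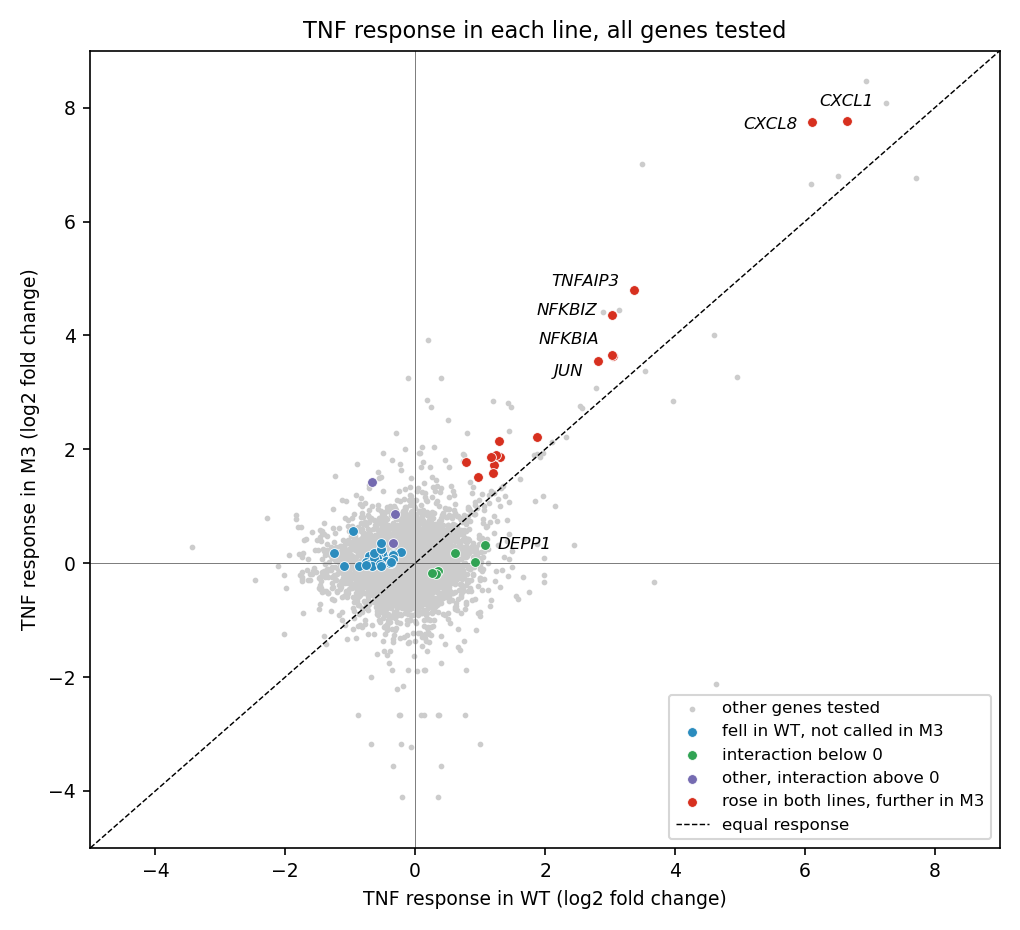
TNF response of each gene tested in WT (x axis, log2 fold change) and in M3 (y axis, log2 fold change), with the called genes coloured by class and a dashed line of equal response. The 16 genes that rose in both lines lie above the dashed line, at 0.79 to 6.64 in WT and 1.51 to 7.77 in M3, and the 35 genes that fell in WT lie near 0 in M3.

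The count of called genes moved with single libraries. It was 14 without WT untreated replicate 1, 16 without WT untreated replicate 2, 18, 23 and 26 without M3 TNF replicates 2, 1 and 3, 21 without M3 untreated replicate 2, 29 without WT TNF replicate 3 and 124 without WT TNF replicate 1. The 16 genes that rose in both lines became 10 without WT untreated replicate 1 or M3 TNF replicate 2. The 6 genes with a lower response in M3 became 2 without either of those libraries, 3 without WT untreated replicate 2 or M3 TNF replicate 1, 11 without WT TNF replicate 1 and 13 without M3 untreated replicate 3. Of the 16, 10 were called in every one of the 20 alternative analyses, and of the 35 that fell in WT, 1 was.

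The 16 genes that rose in both lines include many known early TNF targets and immediate early genes: TNFAIP3, NFKBIZ, NFKBIA, ZC3H12A, CXCL8, CXCL1, CSF1, ICAM1, SDC4, JUN, ATF3, MAFF, ZFP36, DUSP8, PDGFB and NUAK2. To show what the regulatory sequence of these genes holds, RefSeq promoters (GRCh38.p14, 250 bases before to 50 after the start site) were searched on both strands for the κB consensus and for GGAATTTCC, the κB sequence known from CXCL8, which overlaps the consensus in some promoters, and each promoter was counted once. Of the 16 genes, 14 had a promoter in the table, and 7 of these (50%) held a match, against 2150 of 35116 RefSeq promoters of the same length (6.12%). In CXCL8 and ICAM1 the match was to GGAATTTCC alone, and that of CXCL8 was fixed by the choice of sequence. TNF-induced genes without a called interaction were not set apart, so whether the share is particular to this class was not tested. Matches stood in 1 of 18 promoters of the genes that fell in WT (5.56%) and in 1 of 4 of those with a response lower in M3 (25%). The AP-1 sequence TGANTCA was in 1 of the 14 promoters (7.14%), that of CXCL8, against 7.71% of all. A match is a description of the letters, not a binding site shown by these data. The stretches around the 7 matches are given 5′ to 3′ on the strand of the gene, with the matches in capitals.
TNFAIP3, chr6:137867188-137867217, plus strand: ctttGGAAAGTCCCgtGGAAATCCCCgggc
NFKBIZ, chr3:101827757-101827786, plus strand: tttttggtctGGGAATTTCCagtgtgcaga
CXCL8, chr4:73740467-73740496, plus strand: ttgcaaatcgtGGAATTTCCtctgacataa
NFKBIA, chr14:35404811-35404840, minus strand: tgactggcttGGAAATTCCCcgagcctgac
ICAM1, chr19:10270923-10270952, plus strand: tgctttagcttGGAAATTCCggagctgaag
SDC4, chr20:45348502-45348531, minus strand: cgcttccactGGGGAATTCCgggcggggtg
CXCL1, chr4:73869304-73869333, plus strand: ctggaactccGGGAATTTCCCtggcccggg

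The TNFAIP3 stretch held a pair of matches 2 bases apart. The matches of TNFAIP3, CXCL8, NFKBIA, SDC4 and CXCL1 lay in stretches between positions -107 and -42 from the start site, and those of ICAM1 and NFKBIZ farther out, in stretches that began at -197 and -233.

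The first genes of the response to describe are the brakes of the pathway. TNFAIP3 (A20, which removes activating ubiquitin chains from the TNF receptor complex) had 24.6, 24.9 and 24.9 CPM (counts scaled to a fixed library total, here the TMM-scaled one) in untreated WT and 254, 265 and 245 with TNF. In M3 it had 7.16, 7.36 and 8.22 untreated and 203, 216 and 215 with TNF. All untreated M3 libraries lay below all untreated WT libraries, and with TNF the M3 libraries still lay below WT, by a smaller margin. Its TNF response was 3.36 (log2) in WT and 4.80 in M3, an interaction of 1.44 (SE 0.087, adjusted p = 3.04e-11), the smallest p of all genes. M3 against WT was -1.71 untreated and -0.27 with TNF (log2). The larger fold change of M3 therefore stood beside a smaller gain in absolute terms, 204 CPM against 230 CPM in WT (difference -26.3, SE 7.16).

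NFKBIA, the gene of IκBα itself and the edited locus in all lines, had 90.8, 87.4 and 96.5 CPM in untreated WT and 744, 749 and 781 with TNF. In M3 it had 79, 78.1 and 76.7 untreated and 943, 985 and 970 with TNF. M3 thus started slightly below WT and ended above it, and the groups did not overlap in either state. The interaction was 0.58 (SE 0.071, adjusted p = 3.54e-05), with M3 against WT at -0.23 untreated and 0.35 with TNF. Here the gain in CPM was also larger in M3, 888 against 667. The counts do not tell the edited codons apart, so they are no check of the mutation, and what the knock-in left of the untranslated and regulatory sequence is not given in the labels. The 250 bases before the RefSeq start site of NFKBIA (chr14:35404750-35404999, minus strand) are shown because the gene is both the edited one and a member of this class, with the κB match in capitals.
NFKBIA: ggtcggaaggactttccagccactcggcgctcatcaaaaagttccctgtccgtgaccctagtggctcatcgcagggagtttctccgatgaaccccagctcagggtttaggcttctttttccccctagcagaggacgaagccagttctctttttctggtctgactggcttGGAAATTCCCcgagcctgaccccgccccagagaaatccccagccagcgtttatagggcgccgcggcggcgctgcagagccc

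NFKBIZ encodes IκBζ, a nuclear member of the IκB family that acts on secondary NF-κB targets. It had 6.81, 6.34 and 6.58 CPM in untreated WT and 53.7, 56.6 and 51.1 with TNF, against 3.25, 3.3 and 3.07 and then 64.7, 68.7 and 64.5 in M3. The order of the lines reversed with treatment, M3 being lower untreated (-1.04) and higher with TNF (0.29), and the interaction was 1.33 (SE 0.105, adjusted p = 8.7e-09). ZC3H12A, the RNase Regnase-1 that degrades inflammatory mRNAs, was not called different between the lines untreated (7.59 ± 0.113 CPM in WT and 6.66 ± 0.148 in M3, SD, n = 3, edgeR adjusted p = 0.0747). With TNF it reached 17.9 ± 1.44 in WT and 24.9 ± 1 in M3, an interaction of 0.66 (SE 0.116). Among the 11 tested members of a list of inhibitors and feedback genes these 4 were called higher and none lower, and the median of the list was 0.07. Over all genes tested, 0.284% were called higher. Other members that TNF raised showed no such difference, among them BCL3 with an interaction of 0.07 (SE 0.127).

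Of the chemokines and cytokines, CXCL8 (interleukin-8, a neutrophil attractant) showed the largest interaction among the called genes with at least 1 CPM in the highest group. It had 1.91, 1.83 and 2.02 CPM in untreated WT and 116, 132 and 147 with TNF. In M3 it had 0.9, 0.975 and 0.964 untreated and 189, 205 and 215 with TNF. The lines did not overlap in either state and changed order, M3 being lower before TNF (-1.01) and higher with it (0.62). The TNF response was 6.11 in WT and 7.74 in M3, and the interaction 1.63 (SE 0.155, adjusted p = 3.69e-07). The gain was 202 CPM in M3 and 130 in WT (difference 72.1, SE 11.6). The 187 bases upstream of CXCL8 (chr4:73740319-73740505, plus strand) are shown since this was the one promoter of the class with both motifs, TGACTCA and GGAATTTCC, in capitals.
CXCL8: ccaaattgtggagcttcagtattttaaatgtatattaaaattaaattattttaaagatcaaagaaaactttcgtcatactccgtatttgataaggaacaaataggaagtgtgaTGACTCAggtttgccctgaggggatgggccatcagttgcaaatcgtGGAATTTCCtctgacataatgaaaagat

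CXCL1, another neutrophil chemokine of the same cluster on chromosome 4, had 0.888, 0.89 and 1 CPM in untreated WT and 85.2, 92.9 and 97.9 with TNF. In M3 it had 0.744, 0.553 and 0.561 untreated and 129, 143 and 135 with TNF. M3 was lower than WT in all untreated libraries and higher in all treated ones, with an interaction of 1.13 (SE 0.225, adjusted p = 0.03). This call rested on untreated levels near or under 1 CPM. It was lost without any of the WT untreated libraries, without M3 untreated replicate 2 or 3, without M3 TNF replicate 2 or 3 and with the GC trend removed (adjusted p up to 0.143). CSF1, a macrophage growth factor, had 4.96 ± 0.153 CPM untreated and 11.2 ± 0.438 with TNF in WT, and 2.85 ± 0.462 and 10.4 ± 0.631 in M3 (SD, n = 3). With TNF its lines were not called different (-0.11), so that the interaction of 0.70 (SE 0.134) came with the lower untreated level of M3 (-0.80). Its call was lost without M3 untreated replicate 2, M3 TNF replicate 2 or 3, or WT untreated replicate 1 or 2 (adjusted p up to 0.0936).

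Of 11 tested chemokine and cytokine genes, these 3 were called higher and none lower, against 0.284% of all genes tested called higher. The median interaction of the list was 0.57. CXCL3 had 0.445 CPM in untreated WT and 29.2 with TNF, and 0.596 and 60.3 in M3. Its interaction of 0.57 (SE 0.348, adjusted p = 0.687) was not called, although its mean with TNF was higher in M3. The responses of other strongly induced cytokine genes could not be told apart at this depth, since their untreated levels were close to 0: CCL20 had an interaction of 0.83 with an SE of 1.19, and CSF2 one of -1.68 with an SE of 1.42.

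Among the proteins of the cell surface, ICAM1, an adhesion molecule bound by leukocyte integrins, had 15.8, 16.2 and 16.2 CPM in untreated WT and 15.7, 17.2 and 15.7 in untreated M3. With TNF it reached 38.2, 42 and 37.7 in WT and 69.1, 69.8 and 76.5 in M3. The untreated libraries of the lines overlapped and the treated ones did not, so that ICAM1 differed between the lines with TNF alone (interaction 0.86, SE 0.123, adjusted p = 0.00145). SDC4, a heparan sulfate proteoglycan, showed the opposite arrangement. It was lower in M3 untreated (122 ± 4.13 CPM against 166 ± 3.34 in WT, SD, n = 3) and not called different with TNF (366 ± 15.4 against 380 ± 20.2). Its interaction was 0.38 (SE 0.074), and the call was lost without M3 TNF replicate 2 or 3 or WT untreated replicate 1 or 2 (adjusted p up to 0.0772). TNFAIP2 (0.34, adjusted p = 0.0802), KLF6 (0.26, adjusted p = 0.0727) and IRF1 (0.30, adjusted p = 0.17) had positive values that did not pass the edgeR test.

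**Figure D2:**
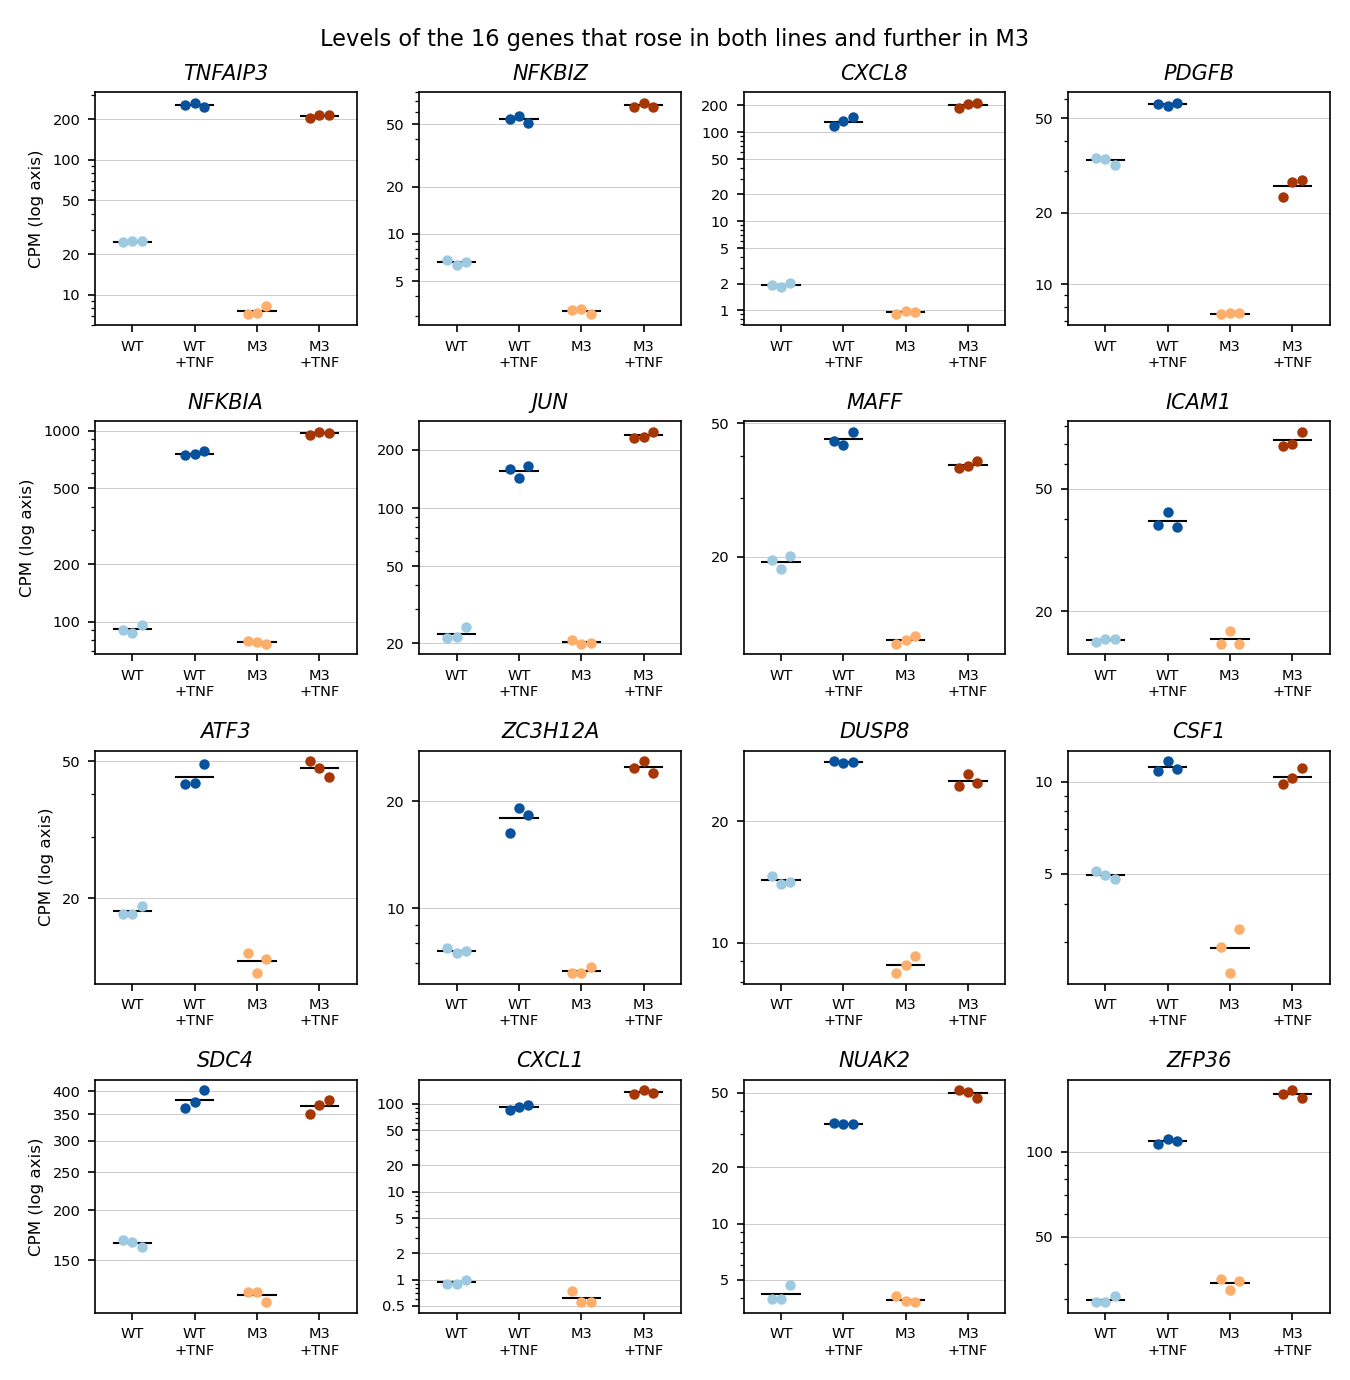
CPM (log axis) of each of the 16 genes that rose in both lines and further in M3, in each library of WT and M3 untreated and with TNF, with a bar at each group mean of 3 libraries. CXCL8, NFKBIZ, NFKBIA and CXCL1 were lower in M3 untreated and higher with TNF, while TNFAIP3, PDGFB and MAFF were lower in M3 in both states.

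Transcription factors of the AP-1 and stress response followed. JUN, the AP-1 subunit, had 21.3, 21.6 and 24.2 CPM in untreated WT and 20.9, 19.9 and 20.1 in untreated M3, a difference that was not called (-0.14). With TNF it had 160, 144 and 166 CPM in WT and 231, 235 and 248 in M3. All treated M3 libraries exceeded all treated WT libraries, and the interaction was 0.74 (SE 0.10, adjusted p = 0.000319). ATF3, a stress-induced repressor of the same family, rose in WT from 18.3 ± 0.55 to 45 ± 3.51 CPM, and in M3 from 13.1 ± 0.887 to 47.7 ± 2.48, an interaction of 0.57 (SE 0.093). MAFF, a small Maf protein, rose from 19.3 ± 0.884 to 44.8 ± 2.16 in WT and from 11.3 ± 0.316 to 37.6 ± 0.957 in M3, an interaction of 0.52 (SE 0.079, each SD with n = 3). Of 39 immediate early genes tested, these 3 were called higher and none lower, with a median interaction of 0.02, against 0.284% of all genes tested called higher. JUNB, another AP-1 subunit, was the counterexample: its interaction was 0.02 (SE 0.079), with 81.1 and 350 CPM in WT and 114 and 500 CPM in M3. It was thus higher in M3 by about the same factor in both states. BTG2, an antiproliferative gene, had an interaction of 0.01 (SE 0.076).

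Genes of other functions completed the class. PDGFB, the B chain of platelet-derived growth factor, had 34.1, 33.7 and 31.8 CPM in untreated WT and 57.2, 56.5 and 58.1 with TNF, and in M3 7.46, 7.54 and 7.55 and then 23.3, 26.9 and 27.4. M3 with TNF stayed below untreated WT, and the gain in CPM was smaller in M3 (18.4 against 24.1, difference -5.76, SE 1.56), while the interaction on the log2 scale was 0.99 (SE 0.114, adjusted p = 3.26e-05). ZFP36, tristetraprolin, which promotes decay of mRNAs with AU-rich elements, was the one member higher in M3 in both states. It had 29.8 ± 0.805 CPM in untreated WT and 34.3 ± 1.59 in untreated M3, and 109 ± 2.15 and 160 ± 4.85 with TNF (SD, n = 3). Its interaction of 0.35 (SE 0.079, adjusted p = 0.0427) was lost without any single library other than M3 untreated replicate 3 (adjusted p up to 0.182). DUSP8, a MAP kinase phosphatase, rose from 14.3 ± 0.312 to 28 ± 0.138 in WT and from 8.84 ± 0.423 to 25.2 ± 0.922 in M3 (interaction 0.54, SE 0.101), a call lost without M3 TNF replicate 2 or WT untreated replicate 1 (adjusted p up to 0.0673). NUAK2, an AMPK-related kinase, rose from 4.2 ± 0.418 to 34.1 ± 0.14 in WT and from 3.92 ± 0.17 to 49.6 ± 2.61 in M3 (interaction 0.63, SE 0.137). Its call was lost without any single library other than WT TNF replicate 1 (adjusted p up to 0.155).

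Untreated and treated levels of the 16 genes were then set apart, since an interaction can come with either. Between the lines, 26.1% of all genes tested were called higher and 26.8% lower in M3 untreated, and 26.9% higher and 27.8% lower with TNF, so that a called difference in level was common in general. Of the 16 genes, 11 were lower in M3 untreated, 1 higher and 4 not called. With TNF 9 were higher, 3 lower and 4 not called. By gene, 4 were lower untreated and higher with TNF (CXCL8, NFKBIZ, NFKBIA and CXCL1), and 4 differed with TNF alone (JUN, ICAM1, ZC3H12A and NUAK2). In another 4, ATF3, CSF1, SDC4 and DUSP8, the lines differed untreated and were not called different with TNF. TNFAIP3, PDGFB and MAFF were lower in both states, and ZFP36 was higher in both. Over all 60 called genes, 27 were lower, 10 higher and 23 not called untreated, and 8 were lower, 40 higher and 12 not called with TNF. A positive interaction means that M3 against WT is higher with TNF than untreated. Most of the 60 and all of the 16 were called for a positive value, so the upward shift in both tallies follows from the choice. Among these 60 genes, the difference between the lines in CPM gained had the same sign as the interaction on the log2 scale in 58 and the other sign in 2, TNFAIP3 and PDGFB. Over all genes tested the signs were the same in 17969 of 19038, so the share is near the background.

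**Figure D3:**
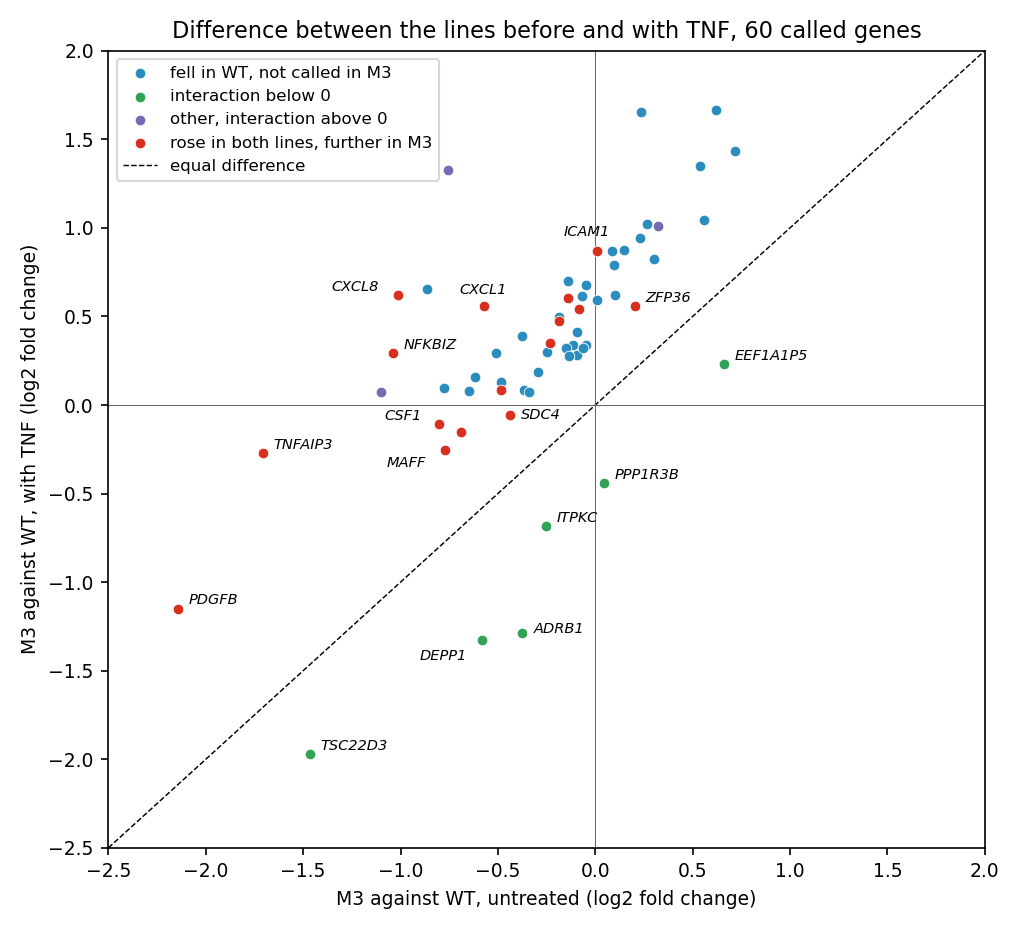
Difference between M3 and WT with TNF (y axis, log2 fold change) against the difference untreated (x axis, log2 fold change) for the 60 called genes, coloured by class, with a dashed line where both are equal. CXCL8, NFKBIZ and CXCL1 lie left of 0 and above 0, TNFAIP3 and PDGFB left of 0 and below 0, and ICAM1 at 0.01 untreated and 0.87 with TNF.

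The N108 line, whose means do not enter the interaction although its libraries share the estimate of spread, gave a further view of which genes TNF induces. With the 12 WT and M3 libraries alone, 87 genes were called in the interaction, among them 54 of the 60 and all 16 that rose in both lines. All 16 genes were called higher with TNF in N108, where 1.1% of the genes tested were. Their median TNF response was 1.58 in WT, 2.19 in M3 and 1.78 in N108 (log2). The 16 were chosen for a rise in WT and M3 that was larger in M3. The order of the WT and M3 medians thus follows from the choice, and a rise in N108 does not bear on the interaction. Conversely, 50 genes were called and at least 2-fold higher with TNF in N108. Of these 50, the interaction was above 0 in 39 (78%), against 45.0% of all genes tested. In the interaction 16 (32%) were called higher and 0 lower, against 0.284% of all genes tested called higher. These 16 are the same 16 genes as above, so the count adds no further genes. The sign is uncertain for members with a large SE, such as SERPINA3 (1.26), SELE (1.51), LTB (1.04) and CCL20 (1.19) above 0, and TNF (1.91) and CSF2 (1.42) below. The median interaction of the 50 genes was 0.50. With no minimum fold, 209 genes were chosen, of which 121 were above 0, 17 (8.13%) were called higher and 1 lower, with a median of 0.03. Of the genes induced in N108 and called higher in the interaction, all but 1 were thus induced at least 2-fold in N108. CD83 (interaction 0.05, SE 0.092), EFNA1 (-0.06, SE 0.103) and IER3 (-0.14, SE 0.074) were induced over 2-fold in both lines with no called difference. BIRC3, an apoptosis inhibitor, rose in WT from 5.4 to 63 CPM and in M3 from 3.69 to 38.5, an interaction of -0.16 (SE 0.122).

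More genes were called changed by TNF in WT than in M3. In WT, 2.03% of the genes tested were called higher and 3.15% lower, and in M3 1.1% higher and 0.278% lower. The 987 genes called in WT became 561 without WT untreated replicate 2 and 432 without WT TNF replicate 3. Among a list of 47 tested early NF-κB targets, 37 rose with TNF in WT and 33 in M3. In the interaction 9 of the 47 were called higher and none lower, against 0.284% and 0.0315% of all genes tested, and the list's median was 0.05. M3 was the lower line for 26 of the 47 untreated and for 22 with TNF, and the higher line for 4 and 13. Of all genes tested, 26.8% were lower in M3 untreated and 27.8% with TNF, and 26.1% and 26.9% were higher. The members without a called difference included all 5 genes of NF-κB subunits: NFKB1 (-0.02), NFKB2 (0.06), REL (0.15), RELA (-0.07) and RELB (-0.04). None of the 11 survival and signal proteins of the list was called, with a median of -0.09.

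**Figure D4:**
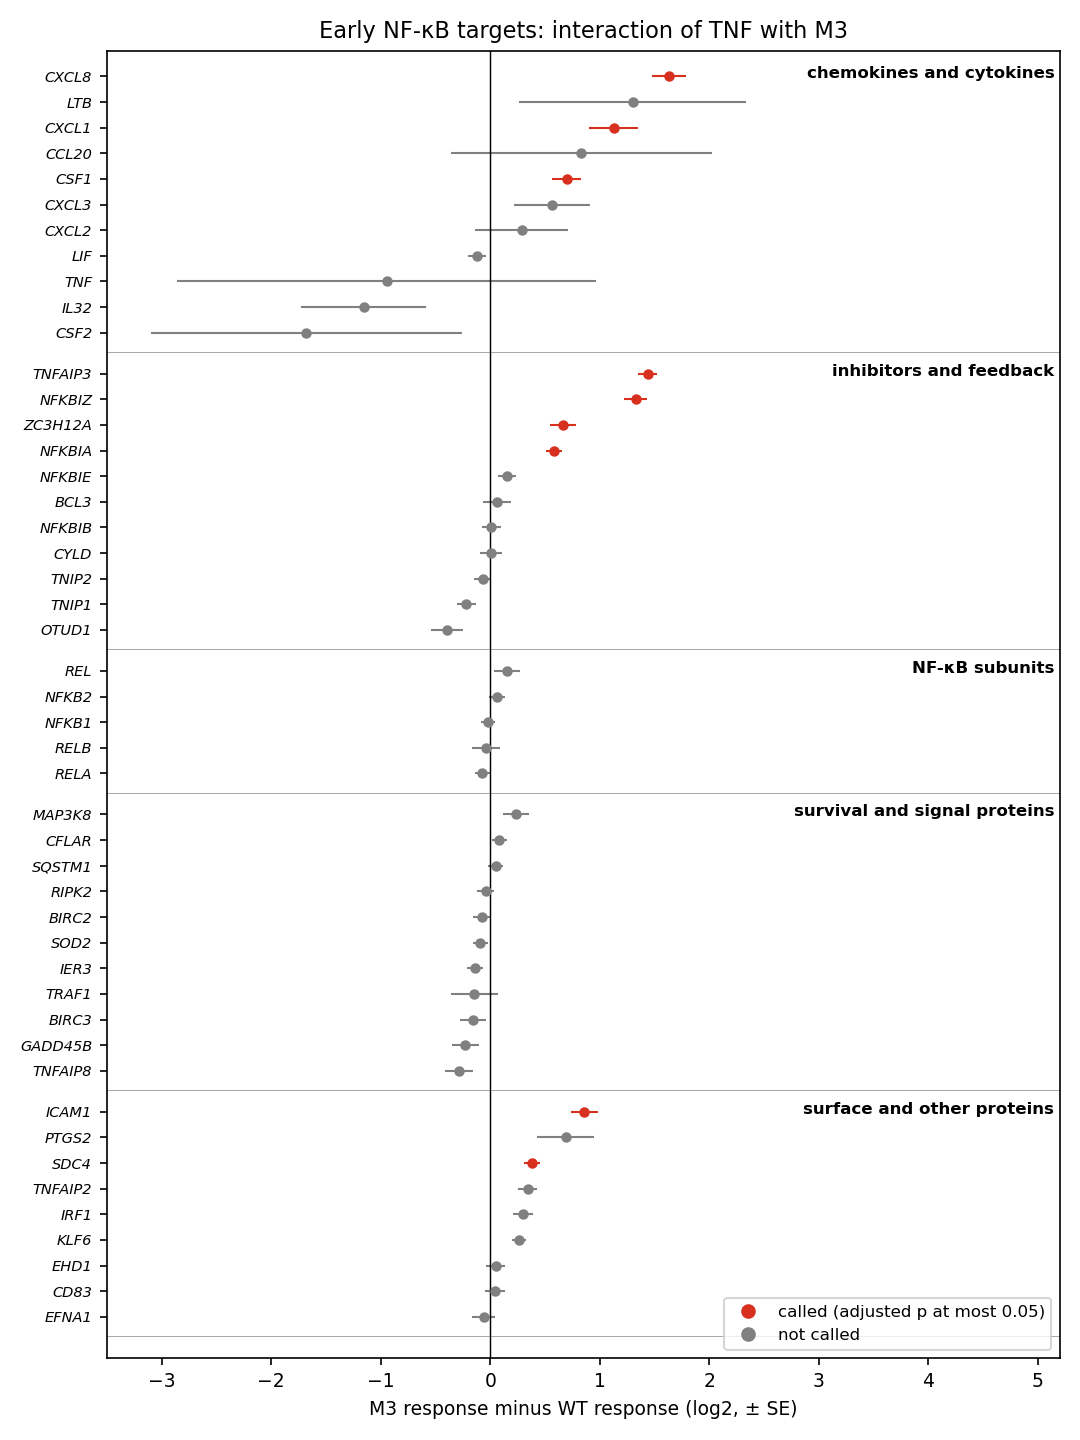
Interaction of TNF with M3 (x axis, M3 response minus WT response in log2, with SE) for the 47 tested early NF-κB targets, grouped by role, with called genes in red. The 9 called genes were CXCL8, CXCL1, CSF1, TNFAIP3, NFKBIZ, ZC3H12A, NFKBIA, ICAM1 and SDC4, while the 5 subunit genes lay between -0.07 and 0.15.

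Upstream of NF-κB, the list from the TNF receptor to IKK held no called receptor or kinase gene. Of 26 tested genes from the TNF receptor to IKK, 2 were called higher, TNFAIP3 and RNF31, and none lower, with a median of -0.01. For this list and those that follow, the shares of all genes tested were 0.284% called higher and 0.0315% called lower. TNFRSF1A, which encodes TNFR1, had 79.3 and 78.3 CPM in WT and 80 and 77.7 in M3, untreated and with TNF, with an interaction of -0.02 (SE 0.07). Among 10 factors of mRNA decay, ZFP36 and ZC3H12A were called higher, and ZFP36L2 had -0.25 (adjusted p = 0.0771). DUSP8 was the one called gene of 11 MAP kinase phosphatases, and NUAK2 the one of 20 YAP/TAZ targets. Of 28 p53 targets none was called in edgeR's test, PLK3 having the smallest p with 0.37 (adjusted p = 0.0768). None of 16 adult intestinal stem cell genes and none of 24 fetal-like regenerative genes was called. At unadjusted p under 0.05 in the same edgeR test, 1 stem cell gene was higher and 3 lower, and 1 fetal-like gene was higher and 5 lower. Over all 19038 genes tested, 1052 were higher and 641 lower at that p. These lists were drawn up with earlier results of these libraries known.

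In the class of 35 genes, expression fell with TNF in WT by a small amount and was not called changed in M3. Their median TNF response was -0.54 in WT, 0.09 in M3 and 0.05 in N108 (log2), and in N108 none of the 35 was called in either direction, where 1.1% of all genes tested were called higher and 0.0998% lower. Across genes, the TNF response followed GC content with a Spearman's rho of -0.301 in WT, -0.271 in M3 and 0.493 in N108. The opposite sign in N108 bears on setting a GC-rich class in N108 beside WT and M3. Protein-coding genes made up 22 of the 35, and the others were pseudogenes, long noncoding and antisense RNAs. Untreated, 11 were lower in M3, 7 higher and 17 not called, whereas with TNF 28 were higher, none lower and 7 not called. The genes were chosen for a positive interaction and a fall in WT, so this upward shift with TNF follows from the choice. The largest interaction among protein-coding members was that of HAL (histidine ammonia-lyase), which had 0.734, 0.798 and 0.86 CPM in untreated WT and 0.427, 0.28 and 0.296 with TNF. In M3 it had 0.883, 0.894 and 1.02 and then 1.11, 1.19 and 0.85. Its interaction was 1.42 (SE 0.294, adjusted p = 0.0304) at levels around 1 CPM, and the call was lost in 9 of 20 alternative analyses (adjusted p up to 0.117).

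DDX39B, an RNA helicase of splicing and mRNA export, had 78.6, 81.7 and 71.7 CPM in untreated WT and 55.8, 57.7 and 47.2 with TNF, and in M3 69, 60.5 and 66.2 and then 66.9, 69.3 and 61.8. In M3 the treated and untreated libraries overlapped, in WT they did not, and the interaction was 0.55 (SE 0.098, adjusted p = 0.0119). The call was lost without M3 TNF replicate 2 or WT untreated replicate 1 or 2 (adjusted p up to 0.0614). DDX39B overlaps ATP6V1G2-DDX39B and other genes on the same strand. ATG16L2, a relative of the autophagy protein ATG16L1, had 13.3 ± 0.379 CPM untreated and 8.96 ± 1.28 with TNF in WT, and 14.2 ± 0.938 and 15.5 ± 1.01 in M3 (SD, n = 3), an interaction of 0.69 (SE 0.12). It was the one gene of the class called in every alternative analysis. RNF31, the catalytic subunit HOIP of the linear ubiquitin ligase that acts in TNF signalling, had 2.77 ± 0.0934 CPM untreated and 1.93 ± 0.356 with TNF in WT, and 1.61 ± 0.0917 and 2.04 ± 0.226 in M3. Its interaction of 0.87 (SE 0.197, adjusted p = 0.0459) was lost in 11 of 20 alternatives. Other members with at least 1 CPM and a large interaction were ATG9B (1.05), JMJD7-PLA2G4B (0.84, a readthrough gene that shares exons with its neighbours), AP1G2-AS1 (0.81, an antisense gene) and PILRB (0.81). DDX39B and ATG16L2 were named after their values were seen.

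This class moved with single libraries. Its median level, as log2 deviation from the mean of the 12 libraries, was 0.16, 0.19 and 0.09 in the untreated WT libraries and -0.22, -0.26 and -0.59 in the WT libraries with TNF, replicate 3 being the lowest. In M3 it lay between -0.005 and 0.17 in all 6 libraries. The count of 35 became 1 without WT untreated replicate 1 or replicate 2, 4 without M3 untreated replicate 2 or M3 TNF replicate 2, 5 and 8 without M3 TNF replicate 1 and 3, 9 without WT TNF replicate 3, 22 without M3 untreated replicate 1 and 92 without WT TNF replicate 1. Of the members, 28 (80%) overlapped the span of another gene in GENCODE 29, and 21 (60%) one on the same strand, against 68.9% and 33.3% of all genes tested and 43.8% and 12.5% of the 16 genes that rose. Without a stated strand setting, reads of overlapping genes may not be told apart. Median GC content was 54.9% in the class, 56.8% in the 16 genes and 49.0% over all genes tested. With the GC trend removed, all 35 genes stayed called, with a median interaction of 0.67 against 0.69 in the main fit. The class drawn anew in that fit held 126 genes. The part of single libraries, gene overlap and GC content in this class was not tested.

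**Figure D5:**
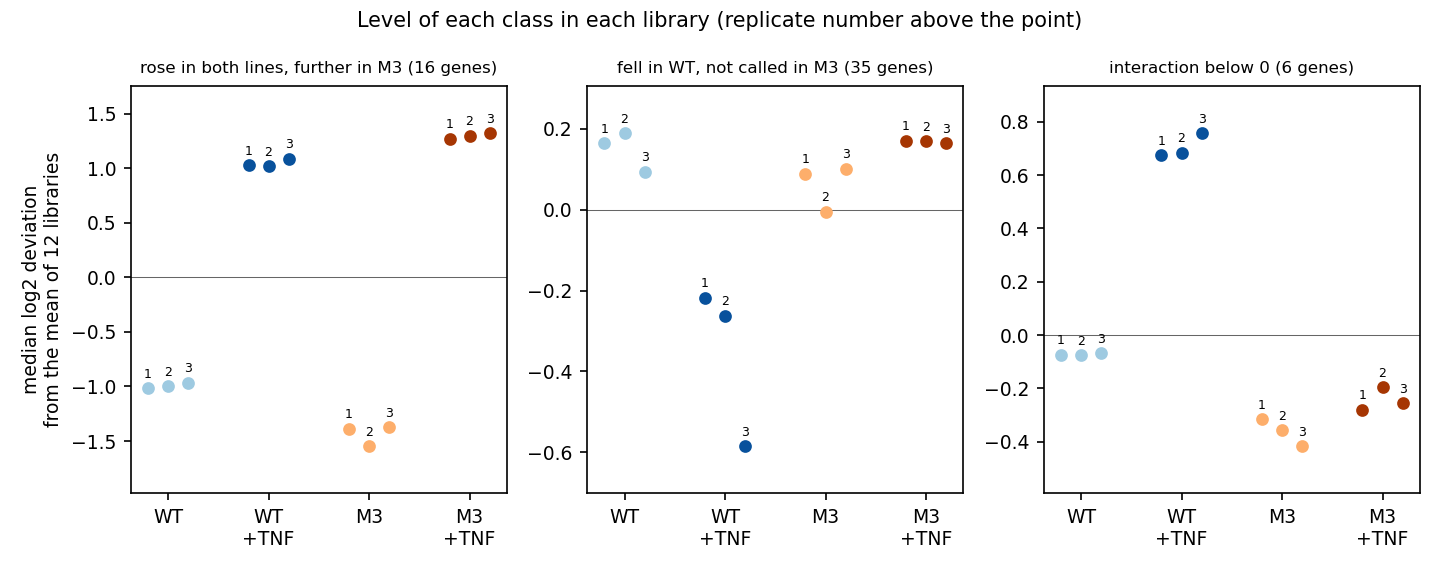
Median log2 deviation from the mean of 12 libraries (y axis) for 3 classes of called genes in each library of WT and M3, untreated and with TNF, with the replicate number above each point. The WT libraries with TNF lie at -0.22, -0.26 and -0.59 for the 35 genes that fell in WT, while for the 16 genes that rose they lie at 1.03, 1.02 and 1.09.

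The 6 genes with a negative interaction rose with TNF in WT and less, or not, in M3. DEPP1, a FOXO target that acts in autophagy and oxidative stress, had 15.2, 14.9 and 14.8 CPM in untreated WT and 30, 31.9 and 32.4 with TNF. In M3 it had 9.67, 10.1 and 10.2 untreated and 11.4, 13.5 and 12.8 with TNF. It rose in both lines, with no treated M3 library reaching an untreated WT library, and the interaction was -0.75 (SE 0.097, adjusted p = 0.000105). ADRB1, the β1-adrenergic receptor, had 2.12 ± 0.156 CPM untreated and 4.01 ± 0.244 with TNF in WT, and 1.63 ± 0.255 and 1.64 ± 0.131 in M3 (SD, n = 3), an interaction of -0.91 (SE 0.17). Its call was lost without M3 untreated replicate 1 or 2, M3 TNF replicate 2 or WT untreated replicate 1 (adjusted p up to 0.0673). PPP1R3B, a glycogen-targeting subunit of protein phosphatase 1, went from 35.6 ± 1.29 to 45.5 ± 0.451 in WT and from 36.8 ± 0.852 to 33.6 ± 3.01 in M3 (interaction -0.49, SE 0.074). It was the one member whose lines were not called different untreated.

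TSC22D3, the glucocorticoid-induced leucine zipper GILZ, had 14.9, 13.9 and 14.9 CPM in untreated WT and 17.7, 18.7 and 18.2 with TNF, and in M3 4.98, 5.05 and 5.78 and then 4.59, 4.55 and 4.76. It rose in WT, and in M3 its treated libraries lay slightly below the untreated ones, a fall that was not called (-0.19, edgeR adjusted p = 0.415). The interaction was -0.51 (SE 0.098), lost without M3 TNF replicate 1 or 2 or WT untreated replicate 1 or 2 (adjusted p up to 0.0886). ITPKC, an inositol trisphosphate kinase, had an interaction of -0.43 and EEF1A1P5 one of -0.43, and each call was lost in 8 of 20 alternatives. EEF1A1P5 is a processed pseudogene of EEF1A1, so its reads may belong to the parent gene. Over the 6 genes the median TNF response was 0.48 in WT, -0.06 in M3 and 0.14 in N108. With TNF, 5 were lower in M3 and 1, EEF1A1P5, higher. Of 18 tested FOXO and glucocorticoid-type targets, DEPP1 and TSC22D3 were called lower and none higher, 14 lay below 0, and the median was -0.12. Over all 19038 genes tested, 0.0315% were called lower and 10475 lay below 0. BCL6, another FOXO target, had -0.35 (edgeR adjusted p = 0.13).

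The 3 remaining genes had a positive interaction without a called fall in WT. ENSG00000272141, a long noncoding RNA gene, had 6.01 ± 0.285 CPM untreated and 4.87 ± 0.716 with TNF in WT, and 2.8 ± 0.106 and 5.11 ± 0.235 in M3 (SD, n = 3). It rose in M3 and in N108 and was not called in WT, started lower in M3 than in WT (-1.10) and was not called different with TNF (0.07), an interaction of 1.17 (SE 0.177, adjusted p = 0.00104). MIR9-1HG, a microRNA host gene, had 0.69 (adjusted p = 0.0287), and the microRNA gene MIR6835, at no more than 0.504 CPM in any group, had 2.08 (adjusted p = 0.0389). Both calls were lost without M3 untreated replicate 2, M3 TNF replicate 1 or 3, WT untreated replicate 1 or 2 or WT TNF replicate 3, and that of MIR6835 also without M3 TNF replicate 2 (adjusted p up to 0.117 and 0.145). MIR6835 lies within HMGA1 on the same strand, and its reads may belong to that gene.

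Most hypoxia and glycolysis genes had an interaction below 0, and none passed the edgeR test over all 18 libraries. Of 32 tested, 30 had an interaction below 0, with a median of -0.24 against -0.02 for all genes tested, and 16 were lower at an unadjusted p under 0.05. Of all 19038 genes tested, 10475 lay below 0 and 641 were lower at that p in the same edgeR test. This list, too, was drawn up with earlier results of these libraries known. In edgeR's test 0 were called. In M3 alone, 7 of the 32 were called lower with TNF and none higher, and in WT 1 was called higher and none lower. Of all genes tested, 0.278% were called lower and 1.1% higher in M3, and 2.03% higher and 3.15% lower in WT. Untreated, 21 of the 32 were higher in M3, and with TNF 13 were, against 26.1% and 26.9% of all genes tested. EGLN3, an oxygen-sensing prolyl hydroxylase, had 9.91 and 9.54 CPM in WT and 12 and 7.8 in M3, untreated and with TNF (interaction -0.57, SE 0.139, adjusted p = 0.0719). ADM, adrenomedullin, had 25 and 21.1 in WT and 47.9 and 30.3 in M3 (-0.42, SE 0.106, adjusted p = 0.0836). Both thus stood high in untreated M3 and came nearer to or below WT with TNF. Both were called lower with DESeq2 and with no filter on low counts. In all, EGLN3 was called in 3 of 20 alternatives (adjusted p down to 0.000141), 1 of them leaving out M3 TNF replicate 3, and ADM in 4 (down to 0.000691). Among 25 epithelial junction genes 21 lay below 0 with a median of -0.09, and 18 housekeeping genes had 15 below 0 with a median of -0.09, and no member of either list was called in edgeR's test over all 18 libraries. The junction genes CLDN12, CLDN3 and CLDN4 were called lower with the GC trend removed (adjusted p = 0.0211, 0.0322 and 0.0455).

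Library totals lay between 49021907 and 76947190 counts. Replicate libraries differed by more than sampling noise, with a chi-square per degree of freedom between 3.33 and 15.2. Of 10 colon epithelial markers 8 were tested, and their summed level was 6548 to 7310 CPM in the WT libraries and 3971 to 4622 in M3. The keratins KRT8, KRT18 and KRT19 made up most of that sum, and each was lower in M3. CDH1 was lower in M3 too, with means of 202 and 217 CPM in WT and 137 and 136 in M3, untreated and with TNF. So was CLDN4, with 295 and 382 in WT and 207 and 234 in M3. EPCAM was higher in M3, with 287 and 313 in WT and 355 and 353 in M3, and CDX2 slightly so, with 22.5 and 21 against 25.1 and 22.3. The differentiated enterocyte markers VIL1 and LGALS4 were at or near 0. KRT20 had 3.45 and 4.41 CPM in WT and 0.785 and 0.762 in M3, untreated and with TNF. Summed fibroblast markers were at 19.8 to 27.7 CPM in WT and 31.2 to 36.9 in M3, mostly COL1A1, with LUM and DCN at 0, and endothelial markers at 1.36 to 1.84 and 1.03 to 1.69. Leukocyte markers lay at 2.68 to 4.14 CPM in WT and 0.309 to 0.736 in M3, with PTPRC and MS4A1 at 0. LYZ was most of the WT sum, with means of 2.67 and 3.3 CPM. Within groups, libraries differed in how level followed GC content. Among WT and M3 libraries Spearman's rho across genes ran from -0.343 in M3 untreated replicate 1 to 0.464 in M3 untreated replicate 3, and in N108 it was as low as -0.517. Across 18537 genes the interaction itself had a rho of 0.070 with GC content, and genes are not independent replicates. CPM are shares of a library, and RNA per cell was not measured. The part of these features in the responses was not tested.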

How the data were processed

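RNA of HCT116 knock-in cells was sequenced as 50 bp paired-end reads. The authors deposited raw counts per Ensembl gene, the unit used here, and a normalized table on a log2 scale, which was checked and not used for a test. Per the submitters' processing notes, the build was hg38 and the tools included STAR 2.7.8 and Trim Galore 0.6.6, with Subread 2.0.1 (featureCounts) and DESeq2 1.38.3. The sources used here give neither annotation release nor strand setting. Groups came from the titles of the samples, and columns were matched by name.

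The test was that of edgeR 4.0.16 (R 4.3.3) on the raw counts: filterByExpr at a minimum count of 10, TMM factors, and 1 robust quasi-likelihood model with a mean for each of 6 groups over all 18 libraries (12 residual degrees of freedom). Genes tested held 99.97% of the counts. Two-sided p-values were adjusted by Benjamini-Hochberg over 19038 genes, with a threshold of 0.05. An SE was obtained by dividing the size of the log2 fold change by the root of its F statistic. CPM were computed from TMM-scaled totals. Symbols were matched for 87.7% of the genes tested, and positions and GC content came from GENCODE 29 on GRCh38 (97.4%). Classes follow the calls of TNF in each line. Named genes were the 12 highest and 12 lowest interactions among called genes with at least 1 CPM and a symbol that was no clone identifier (6 were below 0), called list members, the 3 smallest p of each list, subunit genes and TNFRSF1A. Gene lists, classes and tests were chosen with earlier results of these data known. In simulated counts of 19038 genes for this interaction, 97 of 100 genes at an absolute log2 of 1 and 70 of 100 at 0.5 were recovered, and 4.57% of calls were false. The changed genes had a mean above 1 CPM, and each gene was drawn independently with its fitted spread. The simulation held no library-wide trends such as those with GC content, so it does not give the false share among the real calls. Alternatives were DESeq2 1.42.0, its size factors, other filters, fewer groups, removal of a GC trend, a replicate block and leaving out each library.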

Additional observations from a re-analysis of the deposited data

Results flagged for a closer look

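The 28 genes named by rule and called were singled out because their TNF response differed between the lines by a test of the difference itself (edgeR interaction term, adjusted p at most 0.05), and each value is the M3 response minus the WT response on the log2 scale. Among genes that rose in both lines, the values were 1.63 for CXCL8, 1.44 for TNFAIP3, 1.33 for NFKBIZ, 1.13 for CXCL1, 0.99 for PDGFB, 0.86 for ICAM1, 0.74 for JUN, 0.70 for CSF1, 0.66 for ZC3H12A, 0.63 for NUAK2, 0.58 for NFKBIA, 0.57 for ATF3, 0.54 for DUSP8, 0.52 for MAFF, 0.38 for SDC4 and 0.35 for ZFP36. Among genes that fell in WT, they were 1.42 for HAL, 1.05 for ATG9B, 0.87 for RNF31, 0.84 for JMJD7-PLA2G4B, 0.81 for AP1G2-AS1 and 0.81 for PILRB. Below 0, they were -0.91 for ADRB1, -0.75 for DEPP1, -0.51 for TSC22D3, -0.49 for PPP1R3B, -0.43 for ITPKC and -0.43 for EEF1A1P5.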

How the results depend on the processing

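No called gene changed direction in any of the 20 alternatives, of which 12 leave out 1 library. Of the 60 called genes, 14 were called in all of them and 46 were lost in at least 1. The count of 60 became 147 with DESeq2 (129 higher, 18 lower), 265 with no filter on low counts (236 and 29) and 213 with a GC trend removed (153 and 60). Genes that fell in WT, 35, became 102 with DESeq2, 200 with no filter, 55 with the WT and M3 libraries alone and 126 with the GC trend removed. Genes whose lines differed with TNF alone, 23, became 60 and 71 with DESeq2 and GC removal. Those that differed untreated alone, 12, became 33 and 39. Those that differed in both states, 25, became 54 and 103, and 43 with the WT and M3 libraries alone. With 1 library left out, the count of 60 ran from 14 to 124, its higher part from 12 to 113 and its lower part from 2 to 13. The class that rose in both lines ran from 10 to 16, the class that fell in WT from 1 to 92, TNF alone from 5 to 47, untreated alone from 2 to 28, both states from 7 to 49, and genes called with TNF in WT from 432 to 1147. Among named genes not called, PLK3 was called in 6 alternatives, ADM in 4, EGLN3, PLK2, ZFP36L2, PLAUR and CLDN12 in 3, BCL6 and CLDN3 in 2, and CLDN4 and GADD45A in 1. The causes were not tested.

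Replicate numbers showed no pairing of the libraries by correlation: values between same-numbered libraries ran from -0.053 to 0.049, and 4 of 12 libraries correlated best with their own number. Untreated replicate 3 had the highest rho with GC content of its group in WT (0.290), M3 (0.464) and N108 (0.254). With TNF, replicate 3 had -0.00188, 0.0483 and -0.517 in these lines. Whether libraries of the same number shared a batch was not tested. With the replicate number as a block, 49 genes were called, 45 of them among the 60 (ZFP36 and NUAK2 were lost), and 7 differed untreated alone. With the block and the GC trend removed, 247 were called (182 higher, 65 lower), 154 of them genes that fell in WT. Low counts limited the test for cytokine genes whose untreated levels were near 0.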
